A study of Mus musculus with 12 samples.

Results

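Livers of 6 mice on a high-fat diet that lack the pregnane X receptor were compared after injection of pregnenolone-16alpha-carbonitrile (PCN) or of its vehicle, out of 12 mice in 4 groups in the whole series. All mice were C57BL/6N, carried the label PXR deficient, were 6 weeks old when the diets began and ate them for 18 weeks. The 3 PCN mice (688, 698 and 706) were fed the high-fat diet (HFD) and received PCN intraperitoneally at 50 mg/kg, daily for 4 days. The 3 vehicle mice (682, 697 and 705) were fed the same diet and received 30% DMSO in corn oil on the same schedule. No mice with an intact receptor are among the samples used here, so dependence on the receptor was not tested, and the labels give neither sex nor how the receptor gene was inactivated. The rows analysed are the 33 genes of the authors' PCN table, of 369 rows in both tables together, taken in full and with no further choice.

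The pregnane X receptor is a nuclear receptor of liver and intestine that binds foreign and bile-derived compounds, pairs with the retinoid X receptor on DNA and turns on cytochrome P450, conjugation and transporter genes. PCN is its standard agonist in rodents. The comparison asks which liver genes differ after PCN in HFD-fed animals labelled as lacking the receptor. The receptor gene Nr1i2 is not among the rows and was not analysed here, so the genotype was not checked on these counts.

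PCN was followed by a small set of changes. In the authors' deposited table, 17 genes rose and 10 fell at an adjusted p under 0.05. That limit was set here, and passing below refers to it. The authors also list 6 further genes that do not pass it, 4 with higher and 2 with lower values. Among about 25302 genes that the authors tested, these shares are 0.0672% for the rises, 0.0395% for the falls and 0.107% for both together, and by rank of p 31 genes (0.123%) had reached that threshold by the last listed call. Among the rows, the glycogen-targeting phosphatase subunit gene Ppp1r3c rose most, 4.06-fold. It was rank 2 by p in the authors' test, so a gene with a smaller p is not among the rows. The bone morphogenetic protein (BMP) signal transducer gene Smad9 fell most among the rows, 2.71-fold. Folds here and below are ratios of group means, and the authors' deposited log2 fold changes are smaller in size for all 33 genes. The median fold was 2.07 over the 21 higher rows and 2.16-fold lower over the 12 lower rows. These rows were selected by the authors on the same contrast, so the values below describe the listed genes and add no second line of support.

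Total depth per mouse was not available. Counts over the listed genes summed to between 34989 and 103036 per mouse. These sums carry the selected changes and do not measure depth, and Tat alone made up 24.22% to 36.79% of them. Size factors were recovered from the authors' means. Vehicle mouse 682 had the smallest size factor (0.7373) and vehicle mouse 705 the largest (1.2576), with the PCN mice between 0.8271 and 1.1742. Values below are normalized counts, meaning raw counts divided by the size factor of the mouse, with the mean ± SD over 3 mice per group. Of the hepatocyte markers, 1 of 10 (Tat) is among the rows, and of 53 markers of other liver and blood cells, 1 (Cd163) is. The rows are 33 of about 25302 genes tested, so few members of any list could be among them. For these and all lists below, a member that is not among the rows was not analysed here. Nothing in the labels besides the animal numbers tells whether the mice of a group shared a cage, a litter or a day.

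**Figure D1:**
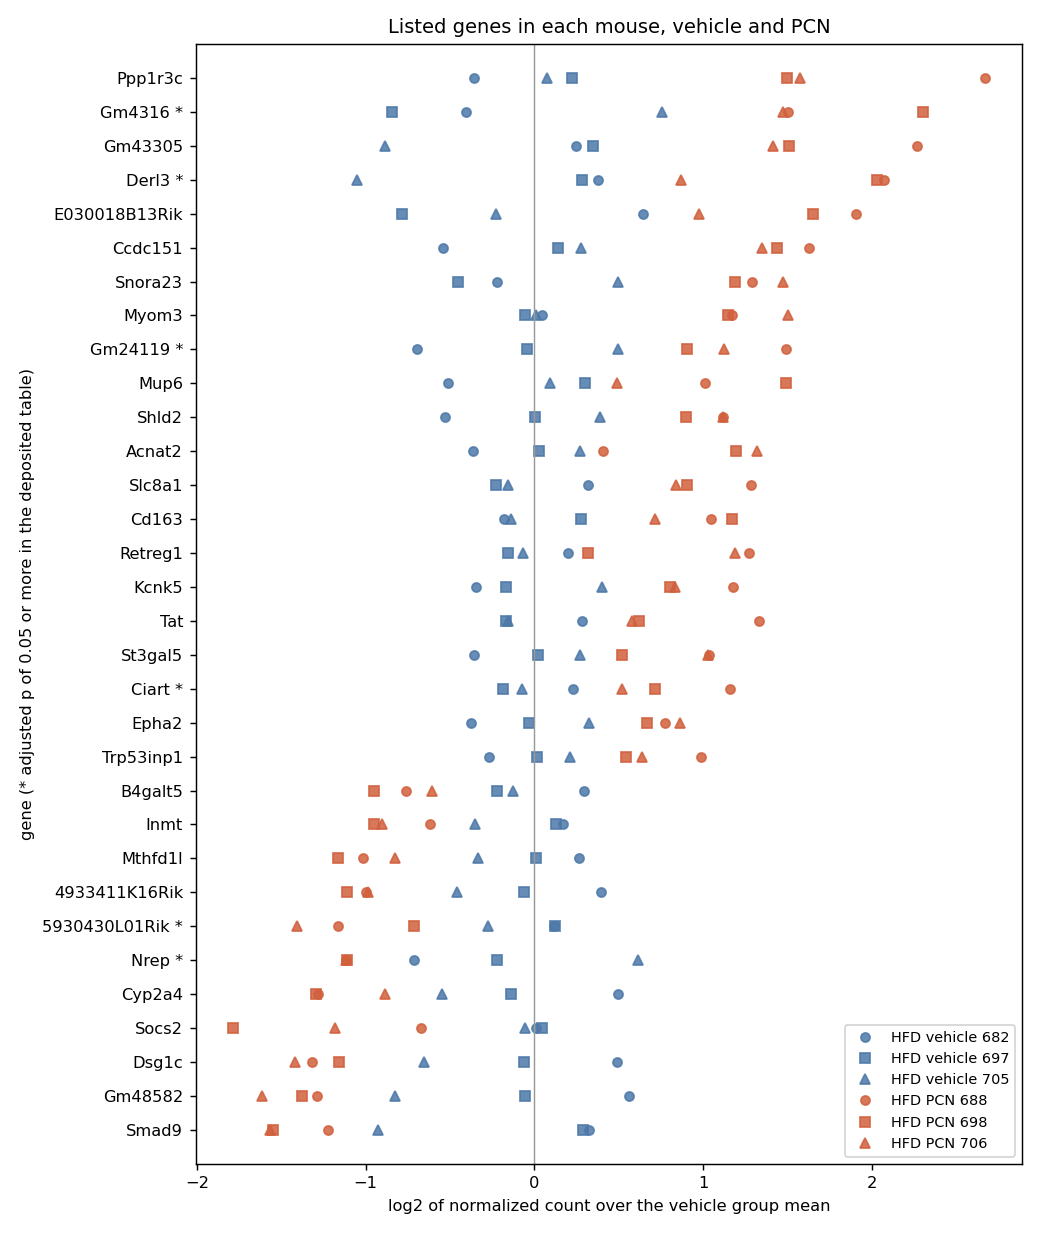
Each point is 1 mouse, placed at the log2 of its normalized count over the vehicle group mean (x axis), for 32 of the listed genes (y axis, ordered by fold); blue marks vehicle mice, orange marks PCN mice, shapes mark the individual mice and an asterisk marks the 6 genes that did not pass an adjusted p of 0.05 in the authors' table. The orange points lie to the right of all blue points in the 21 upper genes and to the left in the 11 lower genes.

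The sequences upstream of 4 listed genes are shown. They include those of the largest rise among the rows (Ppp1r3c) and of a clock gene (Ciart). The other sequences belong to the classic glucocorticoid-induced liver enzyme (Tat) and the most strongly called listed transcript of unknown function (Gm43305). Each is the 250 bases before the RefSeq start on GRCm38.p6, written 5′ to 3′ on the gene's strand. The windows are chr19:36736605-36736854 (minus strand), chr3:95882229-95882478 (minus), chr8:109990186-109990435 (plus) and chr14:54297489-54297738 (minus). Capitals mark matches on either strand to any motif searched: CACGTG (the E-box that clock proteins and other basic helix-loop-helix factors bind), AGAACA (part of a glucocorticoid receptor element), TTCNNNGAA (STAT5), and AGTTCA or AGGTCA (elements that receptors such as PXR bind, also searched as a direct repeat with a gap of 4 bases).
Ppp1r3c: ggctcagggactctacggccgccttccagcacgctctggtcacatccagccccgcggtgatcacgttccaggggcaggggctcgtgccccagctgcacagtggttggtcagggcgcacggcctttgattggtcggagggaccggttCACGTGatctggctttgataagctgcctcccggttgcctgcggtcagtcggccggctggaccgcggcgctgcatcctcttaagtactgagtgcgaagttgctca
Ciart: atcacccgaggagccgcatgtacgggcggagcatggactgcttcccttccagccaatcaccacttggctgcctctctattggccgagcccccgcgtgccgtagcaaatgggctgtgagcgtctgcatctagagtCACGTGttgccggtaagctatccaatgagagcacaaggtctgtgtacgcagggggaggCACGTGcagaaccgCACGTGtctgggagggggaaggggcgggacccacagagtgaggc
Tat: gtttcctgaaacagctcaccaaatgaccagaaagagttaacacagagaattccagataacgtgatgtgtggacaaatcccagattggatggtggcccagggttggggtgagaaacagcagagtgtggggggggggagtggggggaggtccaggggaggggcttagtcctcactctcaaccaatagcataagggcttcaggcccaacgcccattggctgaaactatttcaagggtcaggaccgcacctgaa
Gm43305: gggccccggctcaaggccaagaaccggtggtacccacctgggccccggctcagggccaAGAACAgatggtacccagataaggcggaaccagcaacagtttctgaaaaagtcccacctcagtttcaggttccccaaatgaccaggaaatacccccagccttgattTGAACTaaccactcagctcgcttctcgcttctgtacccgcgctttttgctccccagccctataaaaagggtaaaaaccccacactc

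The window of Ppp1r3c holds a single CACGTG, at positions -104 to -99 from the start, and that of Ciart holds 3, beginning at -116, -58 and -44. None of the searched motifs is in the window of Tat, which says only that these letters are not in those 250 bases. Upstream of Gm43305 stand AGAACA at -192 to -187 and AGTTCA on the opposite strand at -86 to -81. RefSeq windows were held for 25 of the 33 genes. CACGTG was found in 6 of them (24.0%), namely Ppp1r3c, Ciart, Ccdc151, Derl3, Retreg1 and 5930430L01Rik, against 6.86% of 27025 genes with a window. Over protein-coding genes alone it was 5 of 22 members (22.7%) against 7.61%. AGAACA was in 7 of 25 (28.0%, against 18.2% of all genes), and TTCNNNGAA, AGTTCA and AGGTCA were each in 2 of 25 (8.0%, against 8.13%, 13.4% and 15.8%). The direct repeat was in 0 of 25 windows and in 7 of the 27025. The members were chosen on their change with PCN, some have more than 1 window (29 windows in all), and a match is not a binding site.

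Ppp1r3c (ENSMUSG00000067279, chromosome 19 from 36731737 to 36736653 as deposited, minus strand) encodes the subunit that brings protein phosphatase 1 to glycogen, where it promotes glycogen synthesis. Vehicle mice had 426, 638 and 575 normalized counts in mice 682, 697 and 705, and PCN mice had 3481, 1543 and 1626 in mice 688, 698 and 706. All PCN mice lay above all vehicle mice, by at least 2.42-fold between the nearest values, and mouse 688 stood well above the other PCN mice. The means were 546 ± 109 and 2217 ± 1096 (SD, n = 3 each), and without mouse 688 the fold was 2.90. For Ppp1r3c the authors' deposited table gives a log2 change of 1.26 (SE 0.18) and an adjusted p of 1.65e-08. A refit by edgeR's quasi-likelihood test, adjusted for the number of genes the authors tested, gave 2.02 (SE 0.32) with an adjusted p of 0.000138. That call was lost without PCN mouse 688 or PCN mouse 706.

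Tat encodes tyrosine aminotransferase, which starts tyrosine breakdown and is induced by glucocorticoids and fasting. Its normalized counts were 15569, 11373 and 11469 in the vehicle mice and 32279, 19666 and 19133 in the PCN mice. Mouse 688 was again the highest, and the groups did not overlap, with 1.23-fold between the nearest mice. Tat rose 1.85-fold (1.52-fold without mouse 688), at an adjusted p of 0.03326 in the authors' deposited table. Of 34 genes on a list of glycogen and gluconeogenesis genes, Ppp1r3c and Tat rose and no other member is among the rows, and of 22 glucocorticoid receptor targets Tat alone is. The core clock repressor gene Ciart, which acts on the CLOCK and BMAL1 pair at E-boxes, is the only 1 of 22 clock genes listed. It had 309, 232 and 250.5 normalized counts in vehicle mice and 590.2, 434 and 379 in PCN mice, and did not pass in the authors' deposited table (adjusted p = 0.05703).

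**Figure D2:**
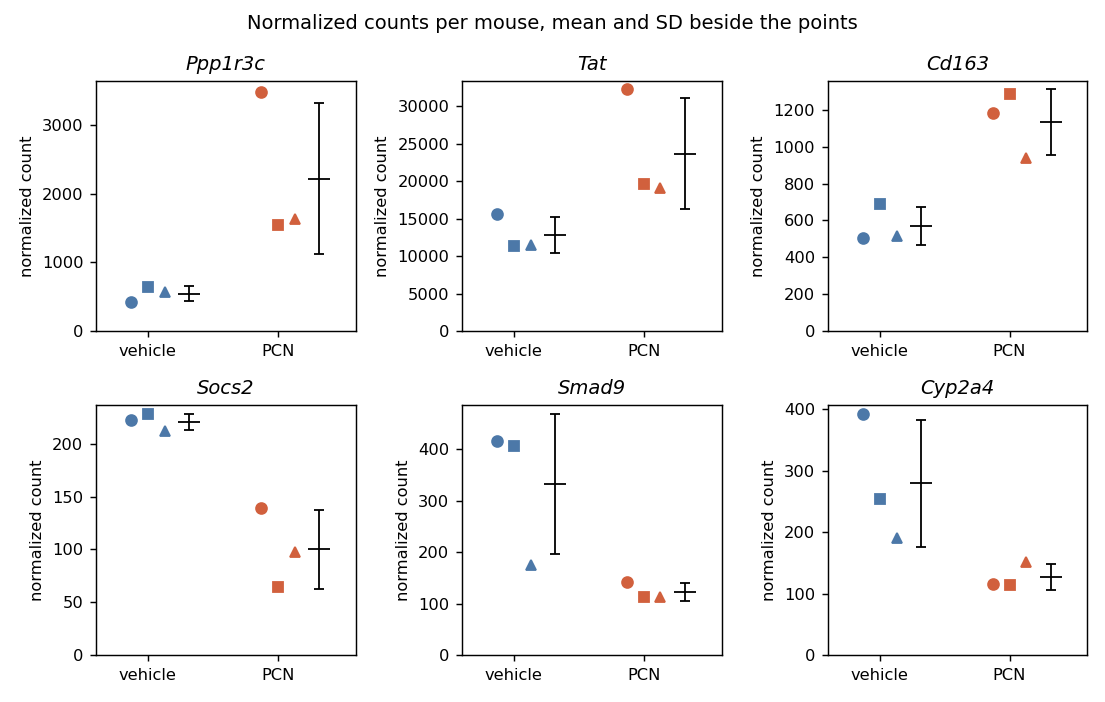
Normalized counts (y axis, starting at 0) of 6 genes in each vehicle mouse (blue) and PCN mouse (orange), with the mean and SD over 3 mice in black beside the points; circles, squares and triangles are mice 682, 697 and 705 or 688, 698 and 706. Ppp1r3c, Tat and Cd163 are higher in all PCN mice, Socs2, Smad9 and Cyp2a4 lower, and the PCN mouse 688 is the highest for Ppp1r3c and Tat.

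Socs2 encodes a feedback inhibitor that STAT5 induces after growth hormone binding. The vehicle mice were close together, at 222, 228 and 212 normalized counts, and the PCN mice had 139, 64.1 and 97.3. Socs2 fell 2.21-fold, and the highest PCN mouse lay 1.53-fold under the lowest vehicle mouse. The authors' deposited table gives it a log2 fold change of -0.75 (SE 0.17) and an adjusted p of 0.02166.

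Cyp2a4 encodes a steroid hydroxylase of the cytochrome P450 family that is higher in female than male mouse liver. It had 393, 254 and 191 normalized counts with vehicle and 115, 114 and 151 with PCN. It fell 2.21-fold, or 1.76-fold without vehicle mouse 682, the highest of its group (adjusted p = 0.03099 in the authors' deposited table). It is the only row on the list of 41 PXR and CAR targets, and it moved down. The other members were not analysed here, so their response to PCN is not known from these rows. Of 41 growth hormone and STAT5 targets, Socs2 and Cyp2a4 fell and no other member is among the rows. That list holds other Mup genes but not Mup6, which rose. These falls therefore give no direction for growth hormone targets as a group.

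Mup6 belongs to the major urinary proteins, pheromone carriers made in liver under growth hormone. Its values were 3813, 6687 and 5787 in vehicle mice against 10959, 15276 and 7618 in PCN mice, so the nearest mice of the groups were only 1.14-fold apart. Mup6 rose, with a ratio of group means of 2.08 and, in the authors' deposited table, a log2 fold change of 0.72 and an adjusted p of 0.03099. It is not on the growth hormone list. The Mup and Cyp2a families hold near-identical copies, and whether reads of relatives were counted for Mup6 or Cyp2a4 could not be checked without reads.

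Smad9 encodes a receptor-regulated SMAD that carries BMP signals to the nucleus. Normalized counts were 416, 406 and 175 in mice 682, 697 and 705, against 142, 114 and 112 in the PCN mice. Vehicle mouse 705 lay far nearer to the PCN mice than the other vehicle mice did, and without it the fold was 3.35 in place of 2.71. The authors' deposited table gives a log2 fold change of -0.85 (SE 0.18) and an adjusted p of 0.004904. Smad9 is the only row among 37 BMP and TGF-beta signalling genes.

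Epha2, a receptor tyrosine kinase for ephrins on neighbouring cells, had 441, 559 and 715 normalized counts with vehicle and 979, 909 and 1041 with PCN. The PCN mice were alike and all above the vehicle mice, a rise of 1.71-fold (authors' deposited table, adjusted p = 0.03099). Trp53inp1, a p53-induced gene that promotes autophagy and cell death under stress, went from 2995, 3658 and 4191 to 7168, 5262 and 5621. At 1.66-fold it was the smallest rise among the rows, with an adjusted p of 0.02601 in the authors' deposited table. Shld2, whose product belongs to the shieldin complex that guides repair of broken DNA ends, rose 2.07-fold, from 773, 1119 and 1461 to 2431, 2083 and 2431 (adjusted p = 0.002185 in the authors' deposited table).

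Slc8a1 encodes a sodium-calcium exchanger. It had 605, 414 and 436 normalized counts in vehicle mice and 1183, 909 and 868 in PCN mice, with no overlap, and rose 2.04-fold (authors' deposited table, adjusted p = 0.0005345). Kcnk5, a background potassium channel gene, had 594, 674 and 999 with vehicle and 1708, 1320.2 and 1346 with PCN. It rose 1.93-fold (authors' deposited table, adjusted p = 0.009783), and without vehicle mouse 705, the highest of its group, the fold was 2.30. Dsg1c encodes a desmoglein, an adhesion protein of desmosomes. Its values fell from 505, 343 and 228 to 144, 161 and 134, or 2.45-fold (authors' deposited table, adjusted p = 0.004391).

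Myom3, a gene for a protein of the muscle M-band, was low in all mice. The vehicle mice had 36.6, 34.1 and 35.8 normalized counts and the PCN mice 80.1, 78.6 and 100.7. The groups were tight and 2.15-fold apart at their nearest mice, and the rise was 2.43-fold (authors' deposited table, adjusted p = 0.01243). Ccdc151, which encodes a docking factor for dynein arms of cilia, was lower still, at 16.3, 26.1 and 28.6 against 73.2, 64.1 and 60.3. It rose 2.78-fold from these few counts, with an adjusted p of 0.02601 in the authors' deposited table.

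Cd163, a scavenger receptor of macrophages that takes up haemoglobin bound to haptoglobin, was the single macrophage marker among the rows. The vehicle mice had 503, 689.7 and 518 normalized counts and the PCN mice 1180.3, 1286 and 938. All PCN mice exceeded the highest vehicle mouse, by at least 1.36-fold, and Cd163 rose 1.99-fold (authors' deposited table, adjusted p = 0.0002962). In whole liver, more macrophages and more Cd163 RNA per macrophage cannot be told apart. The other 13 of 14 macrophage and Kupffer cell markers are not among the rows and were not analysed here, nor are the markers of stellate, endothelial, bile duct, lymphoid or erythroid cells (0 of 10, 8, 6, 9 and 6).

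St3gal5 encodes the sialyltransferase that makes ganglioside GM3 from lactosylceramide, and B4galt5 encodes a galactosyltransferase that makes lactosylceramide. St3gal5 had 3269, 4249.6 and 5060.3 normalized counts with vehicle and 8588, 6012 and 8544 with PCN, and rose 1.84-fold. B4galt5 had 1339, 934 and 996 with vehicle and 642, 565 and 716 with PCN, and fell 1.70-fold. The adjusted p was 0.01243 for St3gal5 and 0.02601 for B4galt5 in the authors' deposited table. The RNA of these genes moved in opposite directions. Enzyme activity and gangliosides were not measured here.

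Acnat2, of the family that joins fatty acids or bile acids to amino acids, had 357, 469 and 553 normalized counts with vehicle and 609.8, 1052 and 1147 with PCN. Here mouse 688 was the lowest PCN mouse, 1.10-fold above the highest vehicle mouse, and the rise was 2.04-fold (authors' deposited table, adjusted p = 0.03099).

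Inmt encodes a methyltransferase that acts on indoleamines. It was among the more abundant falls, from 10167, 9909 and 7088 normalized counts to 5889, 4680.1 and 4838, or 1.76-fold (authors' deposited table, adjusted p = 0.004904). Mthfd1l, a mitochondrial enzyme gene of folate metabolism that yields formate, went from 209, 175 and 138 to 86.0, 77.4 and 98.1, a fall of 1.99-fold (authors' deposited table, adjusted p = 0.03099). Both fell among 25 genes on the list of folate and methyl-group metabolism, and no other member is among the rows. The lists of fatty acid and triglyceride synthesis and of cholesterol and bile acid metabolism, 24 genes each, had 0 members among the rows. With 33 of about 25302 tested genes listed, this does not show that those genes were unchanged.

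Retreg1 encodes a receptor for selective autophagy of the endoplasmic reticulum. It had 1815, 1416 and 1507 normalized counts with vehicle and 3814, 1971 and 3596 with PCN, so mouse 698 lay 1.09-fold above the highest vehicle mouse while the other PCN mice were well above. Retreg1 rose 1.98-fold (authors' deposited table, adjusted p = 0.02166). Derl3, of the machinery that removes misfolded proteins from the same organelle, had 25.8, 24.1 and 9.54 against 83.5, 81.0 and 36.2. Derl3 did not pass in the authors' deposited table (adjusted p = 0.09248), and its counts were among the lowest of the rows.

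Gm43305 (ENSMUSG00000105703, chromosome 14 from 54292443 to 54297456, minus strand, annotated as a processed transcript) overlaps no other annotated gene. It had 932, 1001 and 425 normalized counts with vehicle and 3789.7, 2243 and 2098 with PCN. The nearest mice were 2.10-fold apart and mouse 688 was highest, as for Ppp1r3c and Tat. Gm43305 rose 3.45-fold (authors' deposited table, adjusted p = 1.74e-05). The edgeR refit, adjusted for the number of genes the authors tested, gave an adjusted p of 0.00154. That edgeR call was lost with TMM scaling and without PCN mouse 688, PCN mouse 706 or vehicle mouse 705.

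Snora23 is a small nucleolar RNA of the H/ACA class, which guide pseudouridine formation in ribosomal and other RNA. Its annotated sequence (GENCODE M21, chr7:110046364-110046547, plus strand) is shown because this short RNA had the third-smallest p among the rows. Capitals mark the last ACA by position alone, which stands 1 base before the annotated end. It overlaps another ACA just upstream, which is followed only by CAA. That upstream ACA is at the place of the box that gives the class its name.
Snora23: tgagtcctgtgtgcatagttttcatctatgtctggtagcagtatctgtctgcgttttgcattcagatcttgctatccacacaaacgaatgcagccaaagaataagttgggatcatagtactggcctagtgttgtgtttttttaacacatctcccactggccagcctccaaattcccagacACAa

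The Snora23 counts were 222, 189.7 and 366 with vehicle and 634, 591 and 720.4 with PCN, so it rose 2.50-fold (authors' deposited table, adjusted p = 0.0001263). It lies within Ipo7 on the same strand, shares 0 exonic bases with it, and its counts may include reads of that host gene. Gm24119, the other small nucleolar RNA listed, lies within Slc25a3 in the same way. Gm24119 had 43.4, 68.3 and 99.4 against 198, 132 and 153 and did not pass (adjusted p = 0.07133 in the authors' deposited table).

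E030018B13Rik, within Klf13 on the opposite strand, rose 2.95-fold from 59.7, 22.1 and 32.6 to 143, 119.7 and 74.9 (authors' deposited table, adjusted p = 0.03099). Gm48582, within Dapk1 on the same strand, fell 2.68-fold, from 435, 284 and 167 to 121, 114 and 96.4 (adjusted p = 0.008065 in the authors' deposited table). 4933411K16Rik, within Hoga1 on the same strand and sharing 3.12% of its exonic bases with it, fell 2.04-fold, from 302, 219.9 and 167 to 115, 106 and 116 (adjusted p = 0.03099 in that deposited table of the authors). For genes on the strand of their host gene, strand cannot tell their reads from those of the host. The same limit holds for Gm4316 within Gm20388 and 5930430L01Rik within Gm15406, both on the same strand. Whether counting used strand is not given in the sources used here. Reads of E030018B13Rik, and of Ciart within C920021L13Rik on the opposite strand, therefore cannot be told apart from host reads either. Slc8a1, Acnat2 and Cyp2a4 share 1.57%, 1.66% and 3.51% of their exonic bases with AC122399.1, Gm12451 and Gm42375 on the opposite strand. In all, 15 of the 33 rows overlap another annotated gene. The last genes listed without passing were Gm4316, 5930430L01Rik and Nrep. Gm4316 had 14.9, 11.04 and 33.4 with vehicle and 56.2, 97.9 and 55.1 with PCN. The long non-coding 5930430L01Rik had 114, 114 and 86.7 against 46.8, 64.1 and 39.6. Nrep, a gene of nerve and muscle regeneration, had 240.1, 337 and 604 against 181, 183 and 182, so its PCN mice were almost identical while its vehicle mice were widely spread.

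The listed genes varied within groups in a partly patterned way. In all 33 genes (100% of the rows) the PCN and vehicle mice did not overlap, and these rows were selected on this contrast. PCN mouse 688 was the highest PCN mouse in 13 of the 21 higher genes and the lowest in 1. Among vehicle mice, mouse 682 was lowest in 11 of the 21 higher genes but highest in 7, and mouse 697 was lowest in 8. In the 12 lower genes mouse 682 was highest in 9. Mouse 705 was highest in 10 of the 21 and lowest in 10 of the 12. The vehicle mice stood in the order 682, 697, 705 toward the PCN values in 8 of the 21 higher and 8 of the 12 lower genes, which is also the order of their size factors (0.7373, 0.9961 and 1.2576). The part of size factors in these values was not tested. In the lower genes the median coefficient of variation was 29.6% with vehicle and 11.9% with PCN, and only Socs2 and 5930430L01Rik varied more with PCN. In the higher genes the medians were 24.0% and 20.9%.

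The edgeR refit was made to the 33 rows alone. Its Benjamini-Hochberg adjustment used the number of genes the authors tested. It took every unlisted gene to have a larger p, which was not checked. The refit called 2 genes higher (6.06% of the rows), Ppp1r3c and Gm43305, and 0 lower, while 21 and 12 had a raw p under 0.05. A DESeq2 fit on these rows also gave 2 and 0. The fit shares its estimate of spread among selected rows, so its standard errors were similar for all of them, 0.31 to 0.39 on the log2 scale. After these calls the smallest adjusted p values by edgeR were 0.0853 (Gm4316 and Derl3), 0.181 (E030018B13Rik) and 0.267 (Smad9). When PCN mouse 688 or PCN mouse 706 was left out, edgeR called 0 genes. When vehicle mouse 705 was left out it called 4 higher (Ppp1r3c, Snora23, Gm4316 and Gm24119, so no longer Gm43305) and 4 lower (Smad9, Cyp2a4, Dsg1c and Gm48582).

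**Figure D3:**
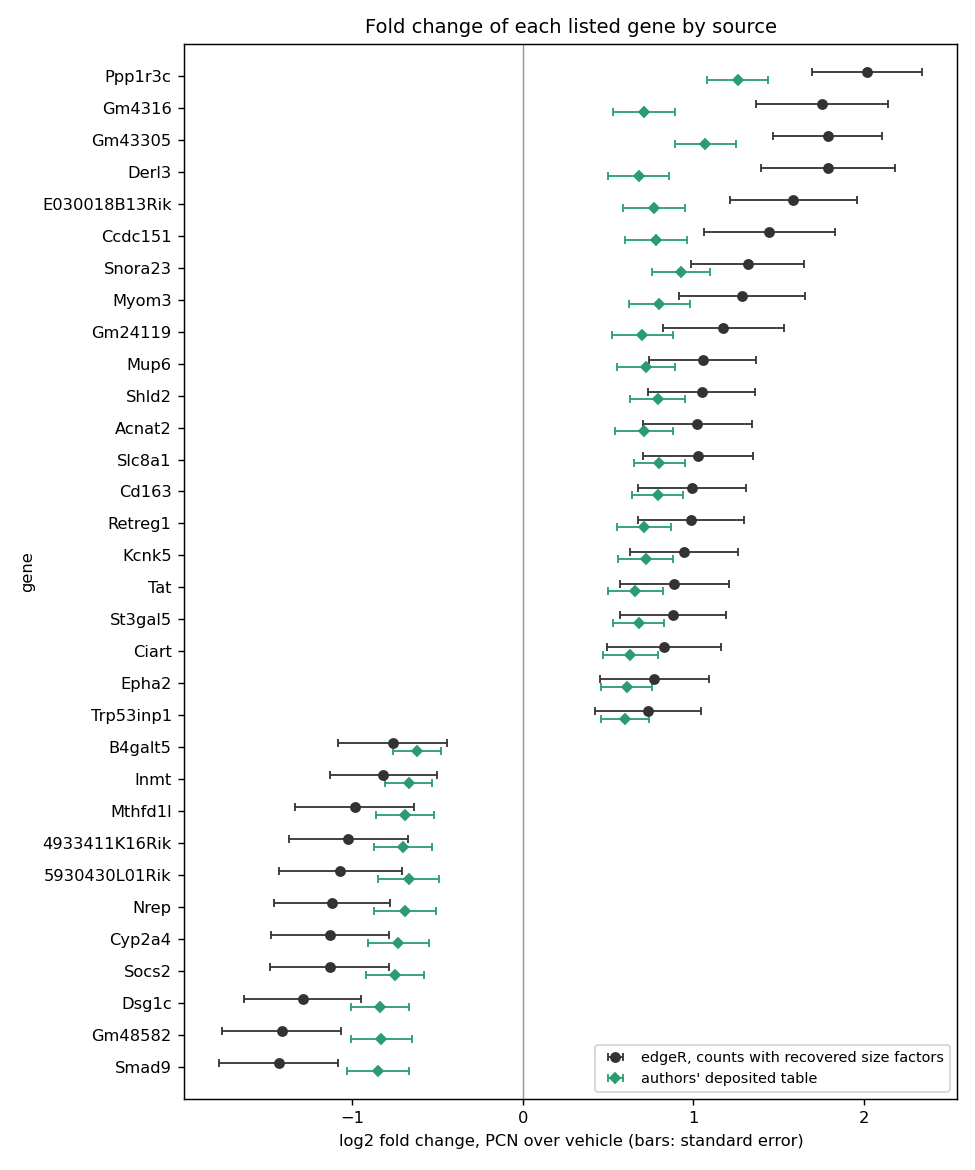
Log2 fold change of PCN over vehicle (x axis) with its standard error for 32 of the listed genes (y axis, ordered by fold), from edgeR on the counts (black circles) and from the authors' deposited table (green diamonds). The deposited value is nearer to 0 in all 32 plotted genes, between -0.85 and 1.26.

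Of the 33 genes, 3 also stand in the table of HFD against chow (9.09% of the PCN rows and 0.893% of the 336 diet rows). That table holds other mice and was normalized separately. Its rows, all with an adjusted p under 0.05 in the authors' test, are 1.34% of the genes tested there. Cyp2a4 had 22.5, 25.9 and 25.3 normalized counts in the chow mice and 205, 216 and 388 in the HFD mice of that comparison, beside the vehicle and PCN values given above. The PCN mice thus lay, in their own table, at 127 ± 21.5 (SD, n = 3), with vehicle at 279 ± 104 (SD, n = 3). Dsg1c had 16.6, 40.3 and 51.9 in chow mice and 84.9, 149.6 and 123 in HFD mice. Myom3 had 27.4, 8.64 and 13.3 in chow mice and 57.8, 65.7 and 71.2 in HFD mice. In the authors' deposited table for diet, all 3 were higher on HFD, with log2 fold changes of 2.59, 1.16 and 1.25. With PCN, Cyp2a4 and Dsg1c moved down and Myom3 moved up.

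**Figure D4:**
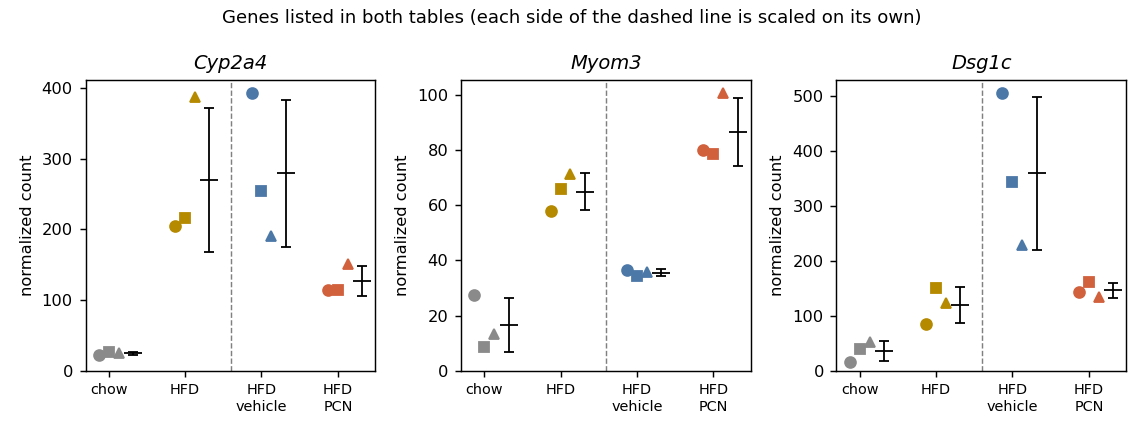
Normalized counts (y axis, starting at 0) of the 3 genes listed in both tables in each mouse of the 4 groups, with mean and SD over 3 mice in black; the dashed line separates the tables, which were scaled separately and share no mice. Cyp2a4 and Dsg1c are higher in HFD than chow mice and lower in PCN than vehicle mice, and Myom3 is higher in HFD and in PCN mice.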

How the data were processed

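Liver RNA was sequenced in 12 mice, of which 6 enter here. Per the submitters' processing notes, HISAT2, HTSeq and DESeq2 were used with GRCm38 (mm10); tool versions, roles and strand use were not given in the sources used here. Per the file headers, the authors' table gives raw counts per gene and mouse and their own mean, log2 fold change, its error, p-value and adjusted value. In its rows the log2 fold change is 0.6 or more in size and the adjusted p is 0.09547 or less. From p and adjusted p the authors tested 25301 to 25303 genes, and 7 ranks up to the last row (rank 40) are not among the rows.

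Size factors were solved from the mean column (largest gap 0.0051 counts). Because rows were selected, calls rest on the authors' adjusted p, with a limit of 0.05 set here. The refit used edgeR 4.0.16 (R 4.3.3, recovered size factors, filterByExpr keeping 33 of 33), with DESeq2 1.42.0 as alternative. "Rose" and "fell" refer to the authors' test. The p-values set a difference of group means against the estimated spread between these mice. The edgeR script was tested on simulated data. Folds are ratios of group means. Log2 ratios used a pseudocount of 0.5. Starts are 1-based; 32 of 33 positions were identical to GENCODE M21. The naming rule names every row; 1 row enters the counts and medians but is not reported here by name or in the plots; members and lists (9 pathway, 7 marker) were chosen with earlier results of these data known. Alternatives were stricter limits, other scalings, medians and leaving out each mouse. With 3 against 3 a permutation cannot give p below 0.1.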

Additional observations from a re-analysis of the deposited data

How the results depend on the processing

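The authors' own test could not be recomputed, because only selected rows are held. Of the 17 higher and 10 lower calls, 7 and 4 had an adjusted p under 0.01, and 2 and 0 had a deposited log2 change of 1 or more in size. The edgeR counts (2 higher, 0 lower) were 1 and 8 with TMM scaling over the listed genes and 21 and 12 when adjusted over the listed genes alone; Gm43305 was not called with TMM; no filter and DESeq2 gave the same counts as the refit. Leaving out each mouse gave 0 to 4 higher (0 without PCN mouse 688 or 706, 4 without vehicle mouse 705) and 0 to 4 lower (4 without vehicle mouse 705, 1 without vehicle mouse 682). TMM moved the median log2 fold change by -0.49, since it centres on genes that were selected for change, and raw counts without size factors moved it by 0.12; 0 of 33 genes changed sign under either, under group medians or without any 1 mouse. With TMM, 8 of the 21 higher genes did not overlap between groups, and with raw counts 14 higher and 11 lower genes did not. Gm4316 was the only gene whose fold moved by over 1.5 times without 1 mouse, from 3.52 to 5.37 without vehicle mouse 705. No paired analysis was possible because the groups share no mouse numbers. Total depth per library is unknown, which limits what can be said of genes with few counts.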
